A study of Mus musculus with 4 samples.

Results

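The limb arrays of this study are taken here as 2 hybridization experiments, and the comparison described is the second experiment against the first. It takes all 4 arrays of the series. Experiment 1 holds 1 wildtype and 1 transgenic array, and experiment 2 holds 1 wildtype and 1 transgenic array. The arrays were assigned by the number that ends each array title, and the labels do not say what that number stands for. First and second are therefore only names. All 16492 probe sets that are not array controls were compared, within each genotype, in the log2 values.

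Each array was an Affymetrix mouse genome array carrying RNA of limbs at E12.5, with forelimbs and hindlimbs together, pooled from 2 to 4 littermates of a single genotype. The strain is given as C57BL/6, and the transgenic line was founded from C57BL/6 x DBA/2 hybrid eggs and mated to C57Bl/6. Wildtype embryos carry no transgene. Transgenic embryos carry the cDNA of human SHOX, a homeodomain factor of long bone growth, under a Col2a1 promoter and enhancer that direct it to developing cartilage (Tg(Col2a1-SHOX)). The study kept more than a single transgenic line, and the sources used here do not say which line was arrayed. The sex of the embryos is not given either. The sources used here do not say whether the wildtype and the transgenic pool with the same title number came from the same litters or were hybridized together. A difference of embryonic stage, of litter, of how much tissue was dissected with the limb, and of the hybridization itself cannot be told apart here.

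At E12.5 the mouse limb is changing quickly. Mesenchyme is condensing into cartilage models of the bones, myoblasts that migrated from the somites are starting to fuse and build sarcomeres, nerves and vessels are growing in, and the hand and foot plate is being divided into digits. Genes of outgrowth and patterning are on their way down while genes of differentiated tissue are on their way up. Of the genes that mark limb mesenchyme, the homeobox gene Prrx1 measured 10.52 in wildtype and 10.49 in transgenic pools of experiment 1 and 10.09 in both of experiment 2, lower by 0.41, and Twist1 measured between 10.10 and 10.17 on the 4 arrays. The liver genes Alb and Hnf4a measured between 6.57 and 6.95. The level of a probe set cannot be set against that of another on these arrays, so these values do not by themselves identify the tissue.

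Experiment 2 differed from experiment 1 over a large part of the transcriptome, by small amounts. At an adjusted p under 0.05 (limma, genotype as a block, Benjamini-Hochberg over all probe sets), 3155 probe sets were called higher and 3318 lower in experiment 2, which is 19.1% and 20.1% of the probe sets, and 39.2% together. Every count of list members given here is to be read against these shares. Requiring also a difference beyond 0.5 on the log2 scale left 335 higher (2.03%) and 386 lower (2.34%), and 21 and 10 of the calls went beyond 1. The median difference over all probe sets was −0.007 and the median absolute difference was 0.113. The difference in wildtype and the difference in transgenic pools had a correlation of 0.857 across probe sets, which is a description, since genes are not independent replicates. Of the 6473 calls, 6462 had the same sign in both genotypes.

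The error behind these calls is that of 2 differences, 1 per genotype. An exact permutation test of 2 arrays against 2 cannot go below a two-sided p of 0.333, so single values are called only through limma, which set the error of each gene largely from the spread of all genes. The median standard error of a difference was 0.0586 and the largest 0.168. A small adjusted p therefore does not show that a difference was alike in the wildtype and the transgenic pools. Tcf21, for example, was called with a difference of 1.65 in wildtype and 0.34 in transgenic pools. Nor does a call carry over to other litters at E12.5. Without the transgenic array of experiment 2, in a fit that had no genotype block, the calls were 1680 higher and 2118 lower.

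**Figure D1:**
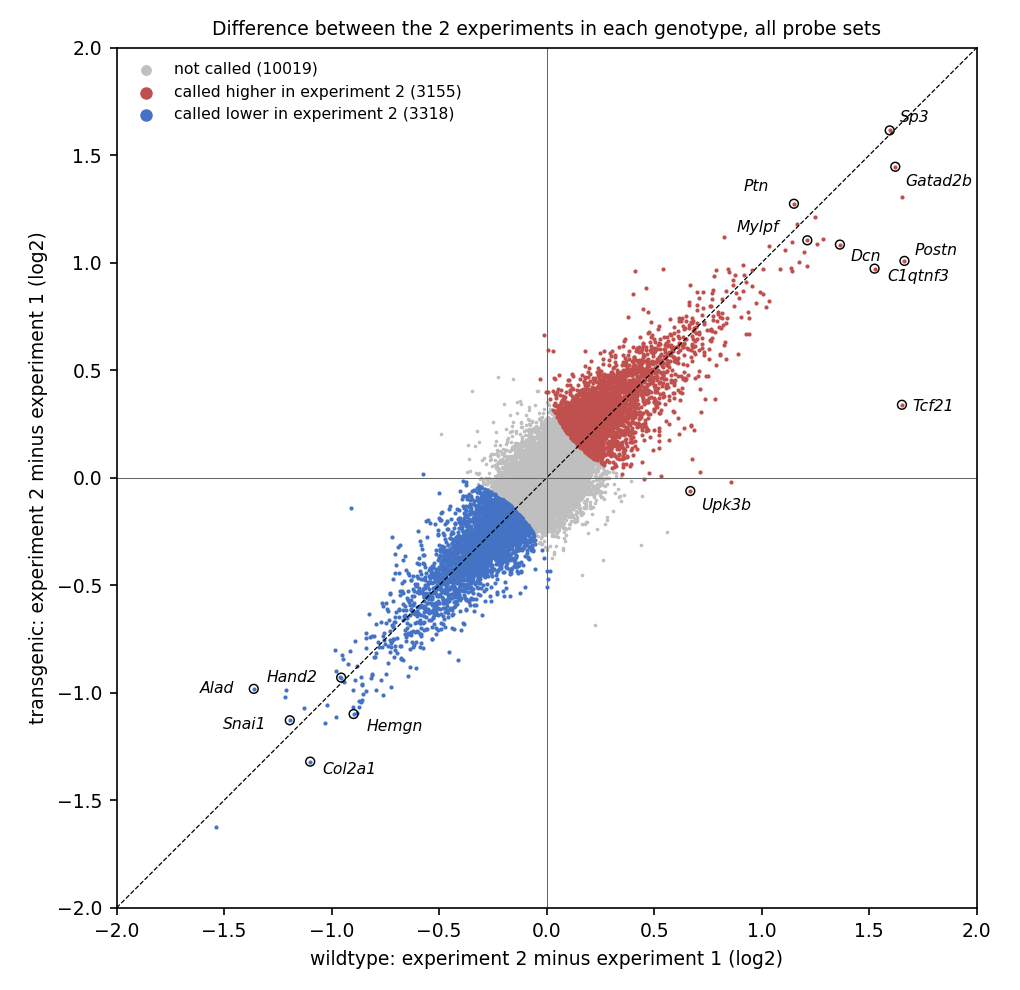
Difference of experiment 2 minus experiment 1 in log2 for each of the 16492 probe sets, in wildtype pools on the horizontal axis and in transgenic pools on the vertical axis, with probe sets called higher in red, called lower in blue and not called in grey, and the dashed line marking equal differences. The points lie along that line (correlation 0.857), and Tcf21 and Upk3b are far off it.

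The array's own controls moved too, and their part in the results was not tested. The 27 poly-A spike-in probe sets differed by −0.14 to 0.13, and 23 of them overlapped between experiments. Among the 18 hybridization spike-in probe sets, those for the BioD transcript were higher in experiment 2 by up to 0.50. The 3 probe sets for mouse B1 and B2 repeats, which read repeat sequence in transcripts, were lower by 0.26 to 0.44. The 3′ over 5′ difference of beta-actin, a measure of RNA integrity, was 0.80 in wildtype and 0.84 in transgenic pools of experiment 1, and 0.72 and 0.78 in experiment 2. For GAPDH it was 0.03, 0.06, 0.14 and 0.12 in the same order.

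The largest increases held regulators that every cell uses, together with matrix and muscle genes. Sp3, a zinc finger transcription factor, measured 8.46 in wildtype and 8.44 in transgenic pools of experiment 1, and 10.05 in both of experiment 2, a 3.04-fold difference (1.61 on the log2 scale, SE 0.06, adjusted p = 9.83e-12). Gatad2b, a subunit of the NuRD chromatin complex, and Ddx6, an RNA helicase of processing bodies, were 2.90-fold and 2.79-fold higher. These 3 genes had the largest increases of all named genes, and none belongs to a tissue list. The next were Postn, C1qtnf3, Ptx3, Dcn, Ptn and Gpc3, which encode secreted or cell surface proteins, with the muscle myosin light chains Myl4 and Mylpf and the small GTPase Rnd3, between 1.16 and 1.34 on the log2 scale. Ptn, encoding the growth factor pleiotrophin, measured 10.68 and 10.56 in experiment 1 and 11.83 and 11.84 in experiment 2. The glypican gene Gpc3, a regulator of body size, measured 11.21 and 11.36 and then 12.49 and 12.47. In these and the following pairs the wildtype value is given first.

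The largest decreases held a cartilage collagen, a heme enzyme, an erythroid nuclear protein and regulators of transcription. Col2a1, the main collagen of cartilage, was 2.31-fold lower, and it is described below with its tissue. Alad, an enzyme of heme synthesis, measured 10.81 and 10.31 in experiment 1 and 9.45 and 9.33 in experiment 2 (2.25-fold lower). Snai1, a repressor of epithelial genes that is active in mesenchyme, measured 8.94 and 8.79 and then 7.74 and 7.66 (2.24-fold lower). Hsd11b2, the enzyme that inactivates glucocorticoids, was lower by 1.10 on the log2 scale, and Hemgn, an erythroid nuclear protein, by 0.998. The corepressor Spen, the calcium channel gene Cacna1h, the linker histone H1f10, the receptor Notch3, the transcriptional repressor Bach2, and Nynrin and Scaf1 completed the 12, between −0.96 and −1.09. For each of these genes both arrays of experiment 2 were below both of experiment 1.

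Genes of contracting skeletal muscle were higher in experiment 2. Of 45 measured genes of the sarcomere and its associated proteins, 27 were called higher in experiment 2 and 2 lower, or 60.0% and 4.44% against 19.1% and 20.1% of all probe sets. The median difference was 0.28, with 0.32 in wildtype and 0.22 in transgenic pools. Mylpf, the fast myosin regulatory light chain, measured 10.28 and 10.56 in experiment 1 and 11.49 and 11.66 in experiment 2 (2.23-fold, SE 0.06 on the log2 scale). The embryonic and atrial light chain gene Myl4 measured 8.83 and 9.25 and then 10.09 and 10.33 (2.26-fold). The troponin C genes Tnnc1 and Tnnc2 were 2.07-fold and 2.04-fold higher. Both arrays of experiment 2 lay above both of experiment 1 for each of these 4 genes.

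Other parts of the contractile apparatus went the same way. Casq2, which stores calcium in the sarcoplasmic reticulum, was higher by 0.83 and Tnni1, the slow troponin I, by 0.81. The giant sarcomere protein gene Ttn measured 7.98 and 8.17 in experiment 1 and 8.80 and 8.88 in experiment 2. Embryonic myosin heavy chain, Myh3, was higher by 0.68 in wildtype and by 0.22 in transgenic pools. The 2 members called lower were Tpm2, a tropomyosin, by 0.28, and Ryr1, the calcium release channel, by 0.22. Summed over the 45 genes on the linear scale, the signal was 23100 and 27700 in experiment 1 and 33600 and 35800 in experiment 2. More muscle cells and more muscle RNA per cell cannot be told apart in pooled limb RNA, and the same holds for every tissue described here.

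The regulators of muscle differentiation differed in both directions. Of 17 measured, 6 were called higher and 3 lower, with a median of −0.03. That is 35.3% and 17.6%, against 19.1% and 20.1% of all probe sets. Myod1, which commits cells to the muscle lineage, measured 9.01 and 9.36 in experiment 1 and 8.60 and 8.51 in experiment 2, lower by 0.63 (adjusted p = 5.41e-06). Myog, which acts downstream of Myod1 as myoblasts differentiate, measured 9.78 and 10.01 and then 10.68 and 10.75, higher by 0.82 (adjusted p = 1.81e-08). Mef2c, a partner of Myog on muscle promoters, was higher by 0.72. Chrna1, a subunit of the acetylcholine receptor of muscle, was higher by 0.40 and Myf5 by 0.35, while Pax7, a gene of muscle progenitors, was lower by 0.18 (adjusted p = 0.0336, and 0.0558 with the arrays centred). Pax3, which marks the migrating progenitors, differed by −0.13 and was not called.

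Matrix genes of loose connective tissue were also higher in part. Of 38 measured, 20 were called higher and 6 lower (52.6% and 15.8%), with a median of 0.21, 0.27 in wildtype and 0.12 in transgenic pools. Postn, encoding periostin of the perichondrium and fibrous tissue, measured 9.88 and 10.77 in experiment 1 and 11.54 and 11.78 in experiment 2 (2.53-fold, adjusted p = 1.62e-08). Its difference was 1.66 in wildtype and 1.01 in transgenic pools, and with a robust prior it was not called (adjusted p = 0.0603). The small leucine-rich proteoglycan gene Dcn, which binds collagen fibrils, measured 9.37 and 9.89 and then 10.73 and 10.98 (2.34-fold). Lox, the enzyme that cross-links collagen and elastin, was higher by 0.93, Thbs2 by 0.73, Efemp1 by 0.69 and Vcan, a large proteoglycan of young mesenchyme, by 0.57. For all of these both arrays of experiment 2 were above both of experiment 1.

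Not all matrix genes were higher. The main fibrillar collagen genes gave Col1a1 at 10.37 and 10.96 in experiment 1 and 10.63 and 10.58 in experiment 2, with overlapping experiments and no call, and Col3a1 at 13.19 and 13.42 and then 13.53 and 13.57, higher by 0.25. Col15a1, a basement membrane collagen, was lower by 0.64, Loxl1 by 0.39 and fibronectin, Fn1, by 0.25. On the summed linear scale the list measured 49700 and 58000 in experiment 1 and 61500 and 63200 in experiment 2.

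Aspn and Ogn, which encode the leucine-rich proteins asporin and osteoglycin, are close neighbours in the mouse genome, in the gene order Ecm2, Aspn, Omd, Ogn. Aspn measured 6.55 and 7.02 in experiment 1 and 7.75 and 8.06 in experiment 2 (2.18-fold), and Ogn 9.01 and 9.47 and then 10.18 and 10.48 (2.13-fold). The other two did not follow. Omd measured between 6.68 and 6.78 and Ecm2 between 6.08 and 6.20 over the 4 arrays, and neither was called. Both lay below the array medians (7.81 to 7.85), and whether they read signal above background was not tested. The promoter windows of the 2 genes that differed are shown because they bracket Omd and moved together. They run from 250 bases before to 50 bases after the gene start in RefSeq on GRCm38.p6, on the plus strand of chromosome 13, at chr13:49544193-49544492 for Aspn and chr13:49607765-49608064 for Ogn. Capitals mark the letters TATAAA or, for the other strand, TTTATA, which in Ogn overlap.
Aspn: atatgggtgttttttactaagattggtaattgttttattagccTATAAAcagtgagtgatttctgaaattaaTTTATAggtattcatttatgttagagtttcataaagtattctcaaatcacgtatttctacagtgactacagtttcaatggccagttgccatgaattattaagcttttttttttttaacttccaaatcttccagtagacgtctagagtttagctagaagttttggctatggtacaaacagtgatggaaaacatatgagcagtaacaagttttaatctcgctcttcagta
Ogn: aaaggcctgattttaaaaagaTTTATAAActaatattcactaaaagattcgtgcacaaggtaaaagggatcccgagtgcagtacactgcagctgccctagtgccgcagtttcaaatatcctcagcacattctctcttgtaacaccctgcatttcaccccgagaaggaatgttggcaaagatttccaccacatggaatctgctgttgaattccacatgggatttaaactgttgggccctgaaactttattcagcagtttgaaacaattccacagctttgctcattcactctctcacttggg
TATAAA on either strand was in 9.72% of the 12273 windows of genes on the array, and in 9.15% of those of genes called higher, so a match is a description of these 2 windows only.

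Cartilage genes were divided. Of 28 measured, 10 were called higher and 9 lower (35.7% and 32.1%), with a median of −0.04. Col2a1 measured 11.68 and 11.87 in experiment 1 and 10.58 and 10.55 in experiment 2 (lower by 1.21, SE 0.06, adjusted p = 5.37e-10), the largest decrease of any named gene. The difference of Col2a1 was −1.10 in wildtype pools, which lack the transgene with its Col2a1 promoter, and −1.32 in transgenic pools. Any part of the transgene in the difference was not tested. Col11a2, which encodes a collagen of the same fibrils, was lower by 0.49, Wwp2, a ubiquitin ligase gene that hosts a cartilage microRNA, by 0.50, and aggrecan, Acan, by 0.27, with overlapping arrays for Acan, which was not called without the genotype block (adjusted p = 0.0747). Sox9, the factor that starts chondrogenesis, measured 9.84 and 9.93 and then 9.79 and 9.68, and was not called.

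In the other direction were further genes of the cartilage matrix. Epyc, encoding the proteoglycan epiphycan, measured 6.96 and 7.33 in experiment 1 and 7.97 and 8.30 in experiment 2 (1.98-fold). Hapln1, the link protein that holds aggrecan on hyaluronan, measured 7.30 and 7.49 and then 8.00 and 8.36 (1.72-fold). Cnmd, an inhibitor of vessel growth made by chondrocytes, was higher by 0.62 and Matn1, a matrilin, by 0.39. All 4 were separate between experiments. So Col2a1 and these genes, which are made by the same tissue, differed in opposite directions in both genotypes.

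Few bone genes were called. Of 14 genes of hypertrophic cartilage and osteoblasts, Ibsp, bone sialoprotein, was higher by 0.67 and Panx3, a channel of prehypertrophic chondrocytes and osteoblasts, by 0.57, and none was called lower. That is 14.3% called higher, against 19.1% of all probe sets. Ibsp measured 6.09 and 6.17 in experiment 1 and 6.56 and 7.05 in experiment 2, and Panx3 6.22 and 6.44 and then 6.77 and 7.04. Col10a1, the collagen of hypertrophic cartilage, measured between 6.48 and 6.67 and was not called. Among 9 joint genes, 3 were lower and 1 higher (33.3% and 11.1%, against 20.1% and 19.1% of all probe sets). The largest differences were Osr2, at 8.54 and 8.58 and then 7.73 and 7.84, and the BMP antagonist Nog, lower by 0.36, while Gdf5, which marks the joint interzone, was not called.

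Tendon genes went both ways. Of 11 measured, 5 were called higher and 2 lower (45.5% and 18.2%). The share called lower was near the 20.1% of all probe sets, against 19.1% called higher. Scx, the factor of tendon progenitors, was lower by 0.25, and Col26a1 by 0.42. Tnmd, encoding tenomodulin of differentiated tendon, measured 6.87 and 6.89 in experiment 1 and 7.30 and 7.40 in experiment 2. Kera, encoding keratocan, was higher by 0.45 and Chodl by 0.58.

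**Figure D2:**
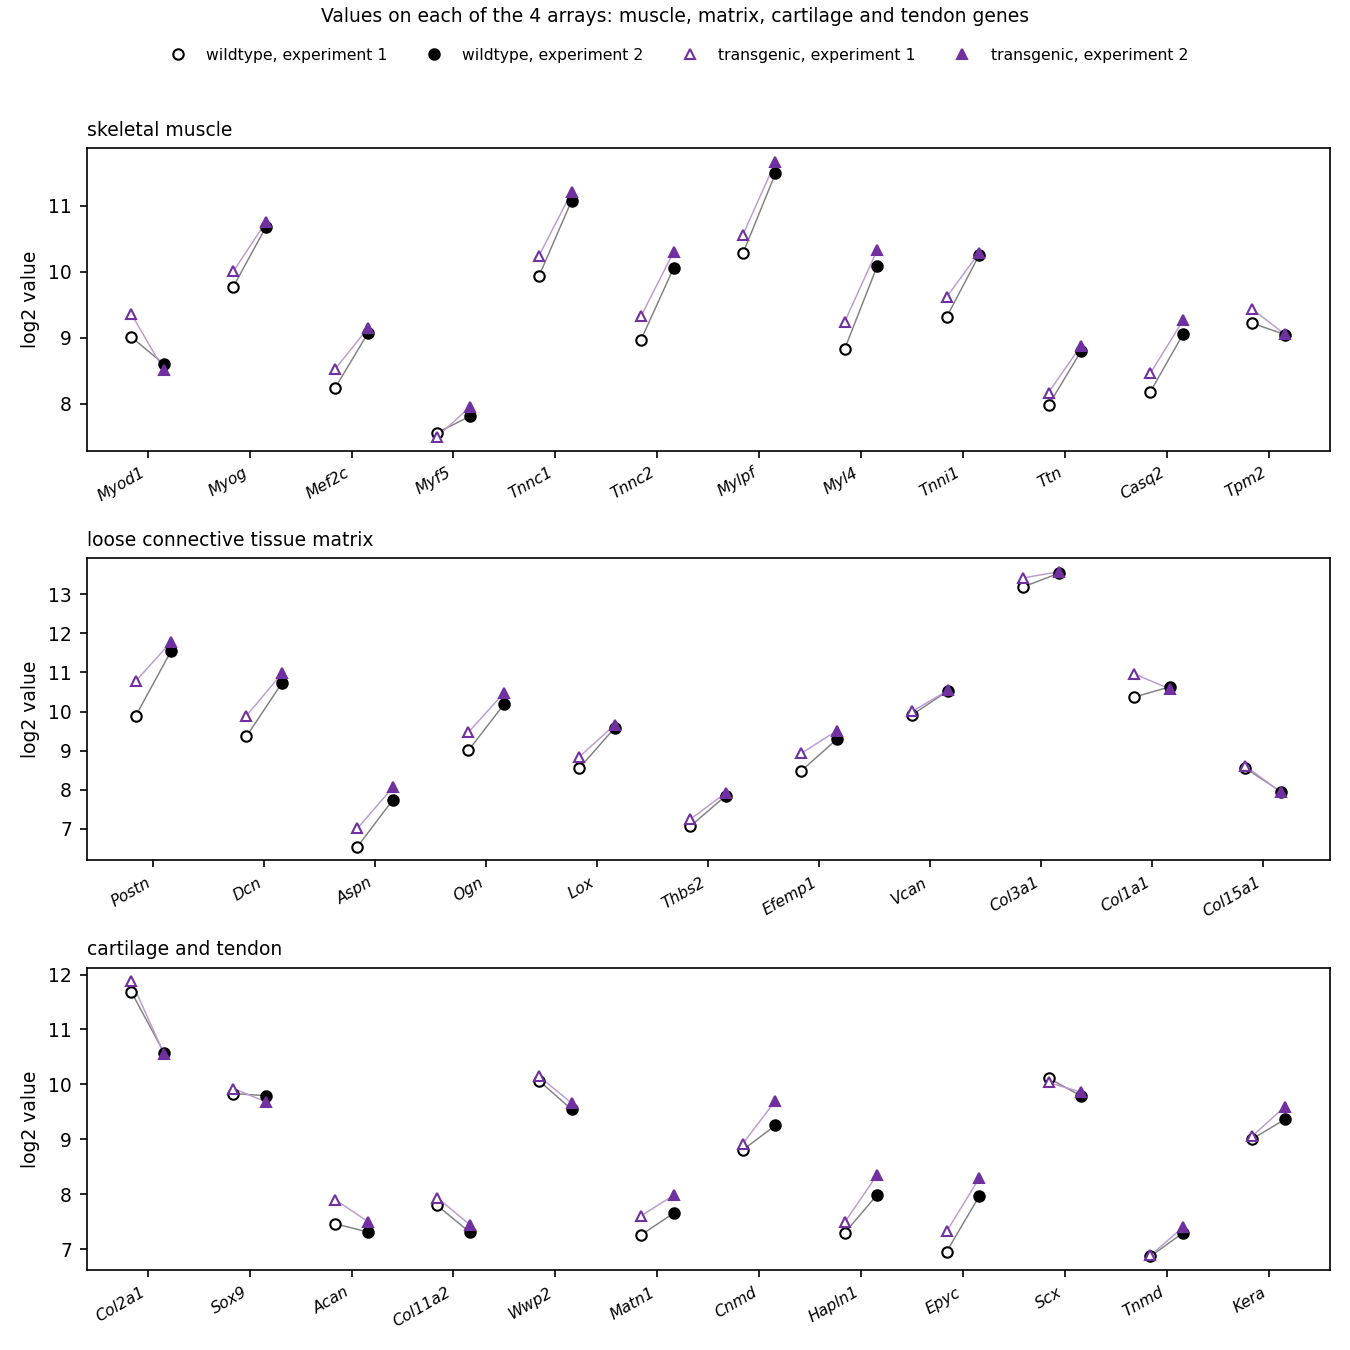
Log2 value of muscle, matrix, cartilage and tendon genes on each array, with circles for wildtype and triangles for transgenic pools, open for experiment 1 and filled for experiment 2, and lines joining the arrays of a genotype. Each gene is to be read against itself. Mylpf, Postn and Epyc are higher and Col2a1 and Myod1 lower in experiment 2 in both genotypes, and Col1a1 goes up in wildtype and down in transgenic pools.

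Genes that pattern the distal limb were lower as a group. Of 19 measured genes listed for the hand and foot plate or for distal mesenchyme, 12 were called lower and 1 higher. That is 63.2% and 5.26%, against 20.1% and 19.1% of all probe sets. The median was −0.31, with −0.36 in wildtype and −0.25 in transgenic pools. Hoxd11, which patterns the zeugopod and the digits, measured 9.00 and 8.95 in experiment 1 and 8.12 and 8.07 in experiment 2 (1.84-fold lower, adjusted p = 4.60e-09). Hoxa11 measured 9.58 and 9.51 and then 8.87 and 8.81 (1.63-fold lower). Lhx2, a LIM homeobox gene of distal mesenchyme, was lower by 0.55 and Sall1 by 0.53. Hoxd13 and Hoxd12, which act in the digits, were lower by 0.44 and 0.45. Hoxa13 differed by −0.07 and was not called, and the member called higher was Tfap2b, by 0.20.

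Hox genes that act further up the limb were lower too. Hoxd9 measured 9.55 and 9.44 in experiment 1 and 8.92 and 8.89 in experiment 2, and Hoxa9 9.64 and 9.50 and then 8.98 and 9.02. The list of proximal limb and girdle genes as a whole held 5 called higher and 5 called lower of 21. That is 23.8% each, near the 19.1% and 20.1% of all probe sets. Irx1 was higher by 0.35 and Alx1 by 0.27. Meis1 and Meis2, which mark the proximal limb, were higher by 0.19 and 0.22, with differences of 0.32 and 0.39 in wildtype and 0.06 in transgenic pools for both. Neither was called without the genotype block (adjusted p = 0.056 and 0.0613).

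The genes of forelimb and of hindlimb identity were lower side by side. Tbx5, which starts the forelimb, measured 9.18 and 8.98 in experiment 1 and 8.48 and 8.20 in experiment 2 (1.68-fold lower). Tbx4, its counterpart in the hindlimb, measured 8.50 and 8.45 and then 7.70 and 7.62 (1.76-fold lower), and Pitx1, which specifies the hindlimb, 9.51 and 9.69 and then 8.89 and 8.91 (1.62-fold lower). Both limb types were pooled on every array, and the forelimb gene and the 2 hindlimb genes differed in the same direction in both genotypes. The posterior Hox genes Hoxc10 and Hoxc9 were lower by 0.45 and 0.25, and the forelimb gene Hoxc6 by 0.39. Hoxc4 and Hoxc5 were not called, with differences of −0.08 and −0.03. Isl1, which acts in early hindlimb formation and in motor and sensory neurons, was higher by 0.38, at 8.48 and 8.85 and then 8.87 and 9.22.

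The signalling centres of the limb gave a mixed picture. Shh, the signal of the posterior margin, measured between 6.83 and 6.95 and Fgf8, the signal of the apical ridge, between 6.73 and 7.01. Neither was called. Both lay below the medians of the 4 arrays (7.81 to 7.85), and whether they read signal above background was not tested. The absence of a call therefore says little of these 2 signals. Other genes of the hedgehog pathway moved in both directions. Gli1, a direct hedgehog target, measured 8.88 and 8.99 in experiment 1 and 8.18 and 8.25 in experiment 2 (1.65-fold lower), and Hand2, a posterior factor upstream of Shh, 8.57 and 8.40 and then 7.61 and 7.47 (1.92-fold lower). Ptch1, the hedgehog receptor and another target, differed by −0.10 and was not called, and Hhip, an inhibitor that binds hedgehog, was higher by 0.35.

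Of 17 genes of the ridge and of FGF response, 6 were called lower and 3 higher. That is 35.3% and 17.6%, against 20.1% and 19.1% of all probe sets. The FGF targets Spry1 and Etv4 were lower by 0.47 and 0.36, and Dlx2 by 0.42, while Dusp6, a further FGF target, was higher by 0.34 and Wnt5a, a signal of distal outgrowth, by 0.40. En1, which marks ventral ectoderm, measured 6.64 and 6.68 in experiment 1 and 6.30 in both pools of experiment 2, and Bmpr1a, a BMP receptor, was higher by 0.39.

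Retinoid and BMP genes held some of the sharper contrasts between members. Of 21 measured, 8 were called higher and 4 lower. Rarb, a retinoic acid receptor that is itself induced by retinoic acid, measured 8.06 and 8.48 in experiment 1 and 8.80 and 8.95 in experiment 2. Rarg, the receptor of cartilage condensations, went the other way, at 9.42 and 9.29 and then 8.79 and 8.68, as did Cyp26b1, the enzyme that clears retinoic acid from the distal limb, at 9.69 and 9.51 and then 9.11 and 8.87. The retinoic acid binding protein genes Crabp1 and Crabp2 were higher by 0.73 and 0.44, and Stra6, a retinol transporter, was lower by 0.50. Bmp5 was higher by 0.59 and Bmp7 lower by 0.50. Dkk2, a Wnt pathway modulator, had the largest difference of the list, at 9.16 and 9.48 and then 10.08 and 10.15.

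Genes known to decline as the embryo ages were mostly lower. The list of 11 measured genes held 6 called lower and 1 higher, with a median of −0.15. That is 54.5% and 9.09%, against 20.1% and 19.1% of all probe sets. Igf2bp1, an RNA binding protein of embryonic tissue, measured 10.70 in both pools of experiment 1 and 10.18 and 10.02 in experiment 2 (1.52-fold lower). Arid3b was lower by 0.41, the growth regulator Mycn by 0.35, the DNA methyltransferase gene Dnmt3b by 0.27, Trim71 by 0.26 and Lin28a, the regulator of let-7 microRNAs, by 0.15. Lin28a, at 6.66 and 6.55 and then 6.48 and 6.43, was close to the threshold (adjusted p = 0.0475, and 0.112 with the arrays centred). Hmga2 and Igf2bp3 differed by 0.12 and −0.02, and Prtg and Utf1 by 0.03 and 0.02, with no call. Fst, the activin antagonist follistatin, was higher by 0.34.

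Growth factor genes differed strongly for a few members. Igf1 measured 8.36 and 8.27 in experiment 1 and 9.09 and 9.14 in experiment 2 (1.74-fold), while Igf2 measured between 11.27 and 11.33 and was not called. Meg3, a maternally expressed noncoding RNA, was 1.72-fold lower, at 12.36 and 12.48 and then 11.54 and 11.73. The IGF binding protein gene Igfbp3 was higher by 0.58, the imprinted adaptor gene Grb10 by 0.48 and Igf2r, which clears IGF2, by 0.47. Over the 17 imprinted and IGF genes 6 were called higher and 4 lower (35.3% and 23.5%).

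**Figure D3:**
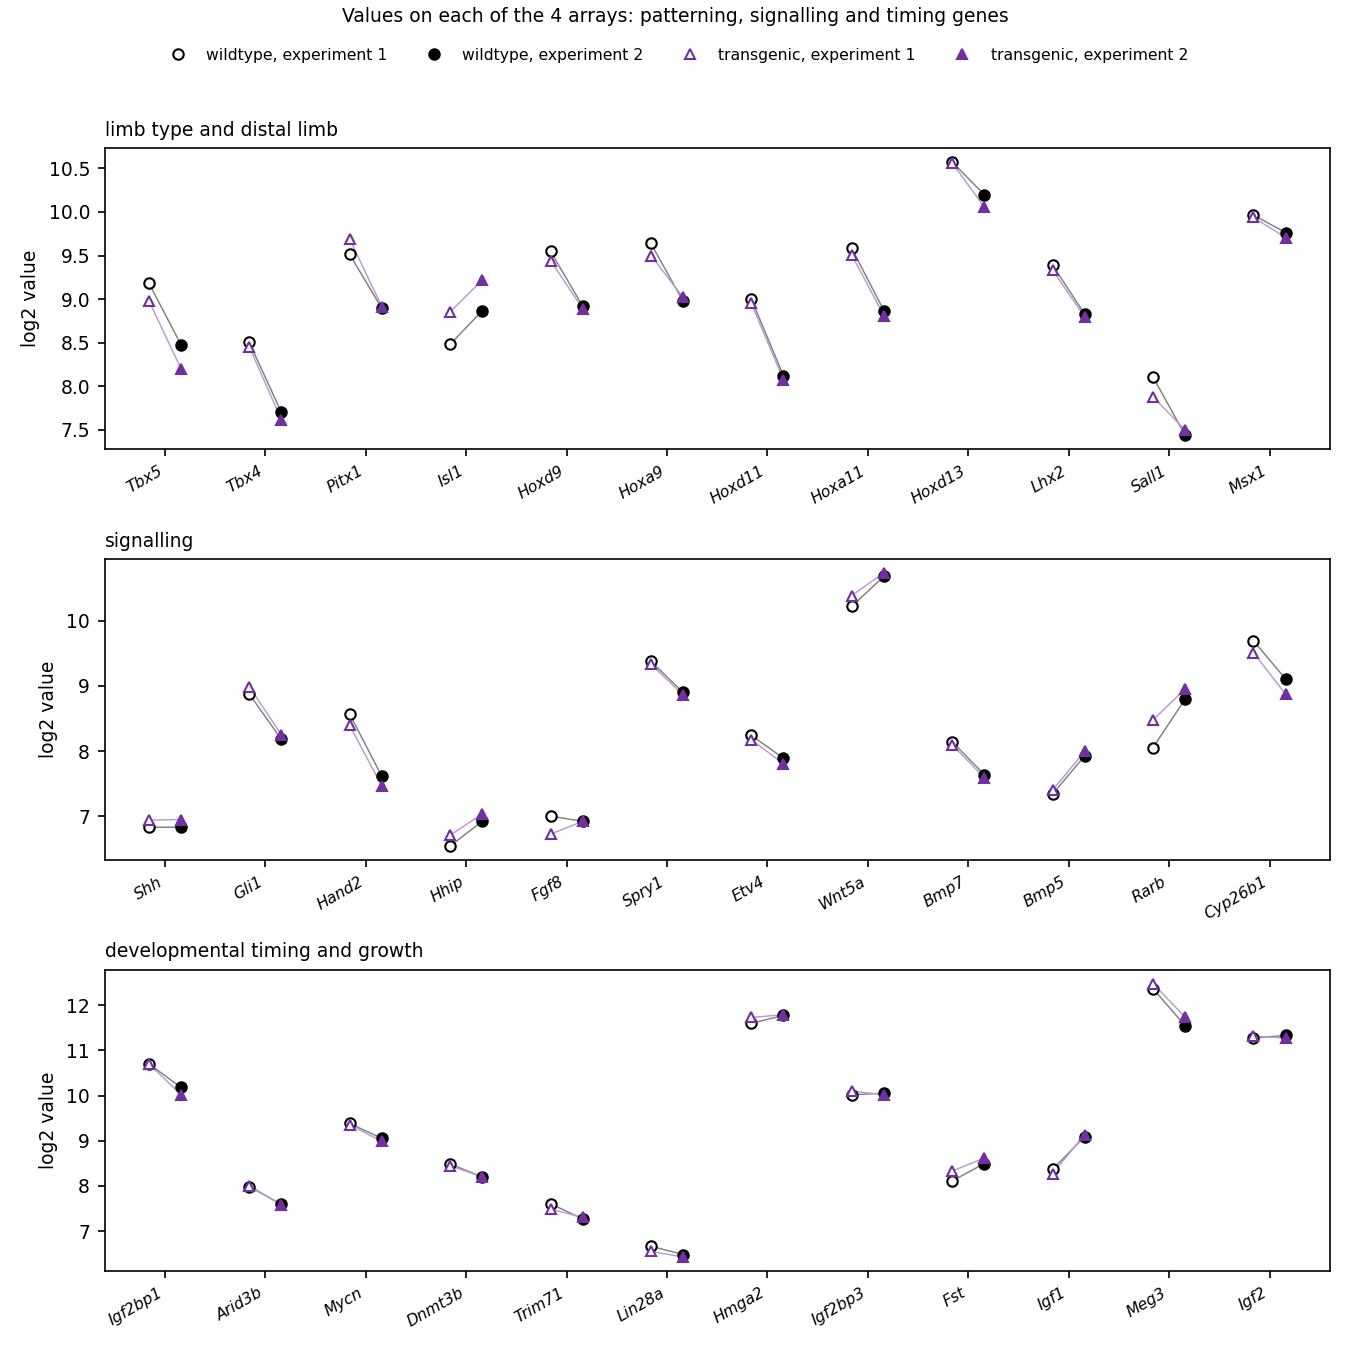
Log2 value of patterning, signalling and timing genes on each array, with the symbols as for the muscle genes. Tbx5, Tbx4, Pitx1, Hoxd11, Hoxa11, Gli1, Hand2 and Igf2bp1 lie lower on both arrays of experiment 2, Igf1 and Rarb higher, and the points of Shh, Fgf8 and Igf2 overlap.

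Nerve genes were higher in part. Of 21 neuronal genes, 9 were called higher, 1 lower and 11 not at all (42.9% higher and 4.76% lower), with a median of 0.01 in wildtype and 0.31 in transgenic pools, a contrast that was not tested. Nefl, a neurofilament, measured 7.81 and 7.79 in experiment 1 and 8.35 and 8.76 in experiment 2, and Gap43, of growing axons, 8.60 and 8.38 and then 8.98 and 9.12. The member called lower was another neurofilament, Nefh, by 0.17 (adjusted p = 0.0261, and 0.0581 with the arrays centred). Fabp7, of Schwann cell precursors and other glia, had the largest difference among 12 glial genes, at 7.06 in both pools of experiment 1 and 7.89 and 8.18 in experiment 2 (1.96-fold). Sox10, which defines that lineage, measured between 7.50 and 7.63 and was not called, and Ngfr was lower by 0.28. The summed signal of the neuronal list was 3670 and 3440 in experiment 1 and 3890 and 4460 in experiment 2.

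Genes of the skin were higher in part as well. Of 33 epidermal and peridermal genes, 14 were called higher and 2 lower (42.4% and 6.06%), with a median of 0.11. The basal keratin genes Krt15 and Krt5 were higher by 0.74 and 0.45, at 8.35 and 8.36 and then 9.08 and 9.11 for Krt15, and 9.43 and 9.41 and then 9.86 and 9.88 for Krt5. The adhesion gene Epcam was higher by 0.62 and Perp by 0.51. Those called lower were Krt1, a keratin of differentiated epidermis, by 0.29, and Cldn4 by 0.23.

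Macrophage genes were higher in 14 of 25 and lower in 1 (56.0% and 4.00%), with a median of 0.21 and no difference beyond 0.5. F13a1 was higher by 0.49, Mrc1, the mannose receptor of resident macrophages, by 0.46, Fcgr3 by 0.45 and the protease gene Ctss by 0.43. The complement genes C1qa, C1qb and C1qc, which macrophages make together, were higher by 0.29 to 0.30. Cd163 was the member called lower, by 0.17 (adjusted p = 0.0675 with the arrays centred), and Ptprc, common to all leukocytes, was not called. Cd163 measured 6.13 and 6.07 and then 5.89 and 5.97, below the array medians (7.81 to 7.85). Of 14 interferon and MHC class I genes, 6 were higher and 1 lower (42.9% and 7.14%). Among them B2m, the light chain of MHC class I, measured 9.71 and 9.76 and then 10.28 and 10.35.

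Endothelial genes went both ways, in shares near those of all probe sets. Among 29 measured, 7 were called higher and 7 lower (24.1% each, against 19.1% and 20.1% of all probe sets). Pecam1, of all endothelium, measured 8.10 and 8.11 in experiment 1 and 8.75 and 8.71 in experiment 2, while Plvap, of fenestrated vessels, measured 9.33 and 9.42 and then 8.74 and 8.75. Cdh5, which defines the lineage, measured between 7.67 and 7.79 and was not called. Lyve1 of lymphatic vessels and some macrophages was higher by 0.44 and Emcn by 0.43. Of the genes of vessel walls, Notch3 was 1.96-fold lower, at 9.48 and 9.65 and then 8.61 and 8.58, and Pdgfrb was lower by 0.41, while the contractile genes Myl9 and Tagln were higher by 0.75 and 0.46.

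Blood genes were lower only in part. Of the embryonic globin genes of primitive red cells, Hba-x was lower by 0.27 and Hbb-bh1 by 0.19, the latter with overlapping arrays, and Hbb-y differed by 0.14 with no call. Hbb-bh1 was not called without the genotype block (adjusted p = 0.0897), and its difference was −0.06 without the transgenic array of experiment 2 (adjusted p = 0.642). That of Hba-x ranged from −0.43 to −0.12 when an array was left out, and it was not called without the transgenic array of experiment 2 (adjusted p = 0.319) or the wildtype array of experiment 1 (adjusted p = 0.125). Among 18 other erythroid genes 4 were lower and 2 higher (22.2% and 11.1%, against 20.1% and 19.1% of all probe sets). Hemgn measured 8.15 and 8.10 in experiment 1 and 7.25 and 7.00 in experiment 2, and Klf1, the erythroid transcription factor, 8.01 and 7.87 and then 7.53 and 7.62. The heme enzyme gene Alas2 and the transferrin receptor gene Tfrc were higher by 0.30 and 0.36.

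Tissue next to the limb may be taken along in dissection, and genes of such tissue were measured. Of 13 mesothelial genes, 6 were called higher (46.2%, against 19.1% of all probe sets) and none lower. Upk1b was higher by 0.39 in both genotypes. Tcf21, which is also made by limb and trunk mesenchyme, measured 6.42 and 8.17 in experiment 1 and 8.07 and 8.51 in experiment 2, so the wildtype array of experiment 1 stood apart from the other 3, and the call was lost with a robust prior (adjusted p = 0.446). Upk3b was called, at 6.76 and 7.47 and then 7.42 and 7.41, although the difference was 0.67 in wildtype and −0.06 in transgenic pools (adjusted p = 0.0281, and 0.556 with a robust prior), and Wt1, at 7.05 and 7.84 and then 7.61 and 7.58, was not. Of 15 liver genes 3 were called higher (20.0%, against 19.1% of all probe sets) and none lower. Those called higher included Afp, at 6.25 and 6.40 and then 6.97 and 6.43. The wildtype array of experiment 2 was highest for Afp, and a robust prior gave no call (adjusted p = 0.42). Alb measured between 6.79 and 6.95 on all 4 arrays. Among 8 heart genes, 3 were called higher and 1 lower (37.5% and 12.5%). Sln, which developing skeletal muscle also makes, was higher by 0.93, Myl7 by 0.45 and Nppa by 0.17, and Tnni3 was lower by 0.19. Nppa was not called without the genotype block (adjusted p = 0.0813). Myh6 and Nkx2-5 were not called.

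**Figure D4:**
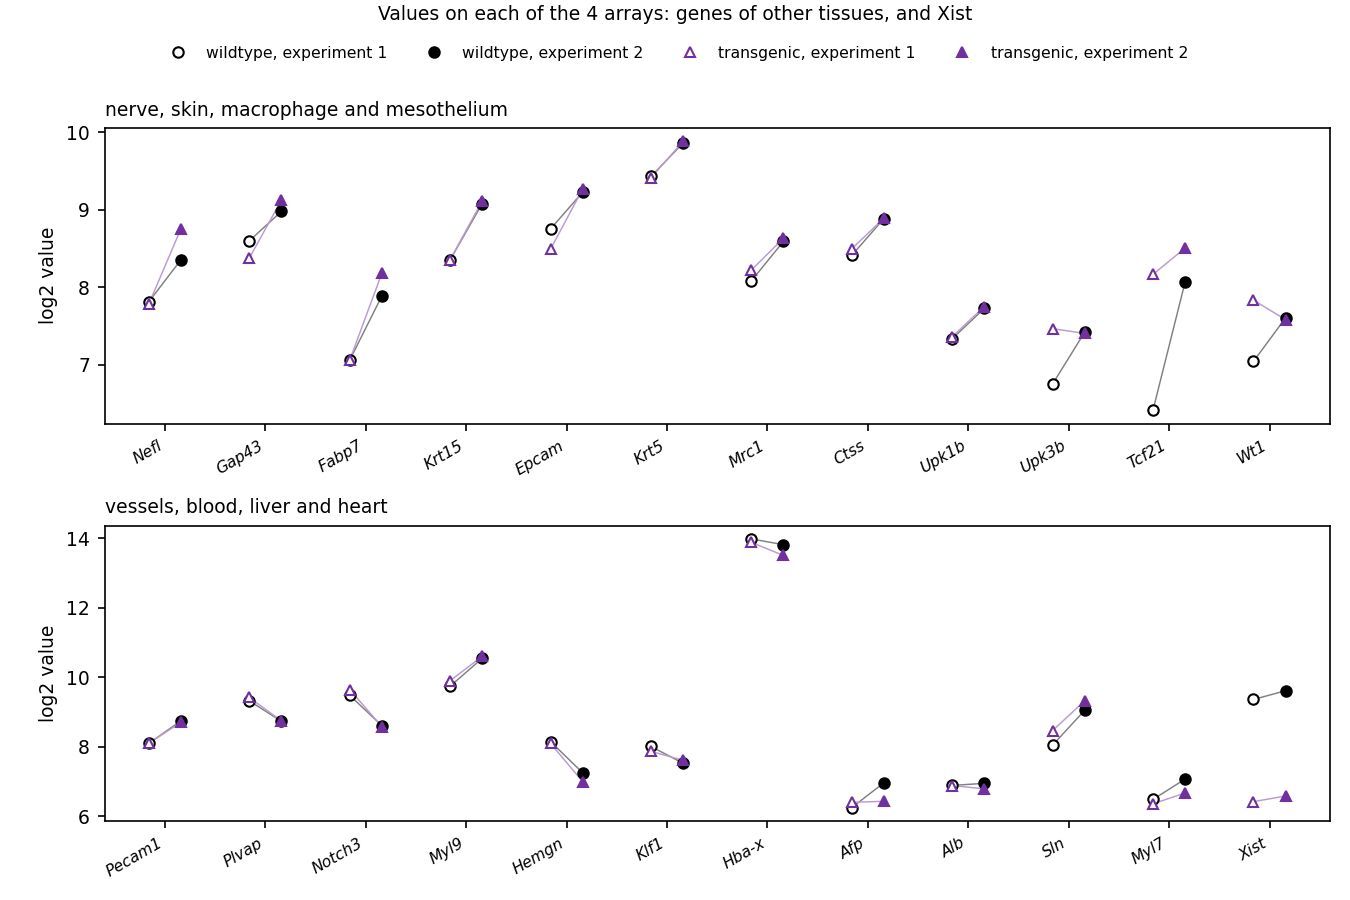
Log2 value of genes of nerve, skin, macrophages, mesothelium, vessels, blood, liver and heart, and of Xist, on each array, with the symbols as for the muscle genes. Krt15, Fabp7, Pecam1 and Myl9 are higher and Plvap, Notch3 and Hemgn lower on both arrays of experiment 2, the wildtype array of experiment 1 has the lowest Tcf21, Upk3b and Wt1, and Xist is separated by genotype rather than by experiment.

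Cell division genes differed in both directions, and the shares of DNA replication genes were near those of all probe sets. Of 32 genes of DNA replication, 7 were called higher and 5 lower (21.9% and 15.6%), with a median of 0.06. Of 32 genes of mitosis, 13 were called higher and 7 lower (40.6% and 21.9%, against 19.1% and 20.1% of all probe sets), with a median of 0.05. Within mitosis the members went apart. Cenpe, a kinetochore motor, measured 9.04 and 9.09 in experiment 1 and 9.73 and 9.78 in experiment 2, and Plk1, a mitotic kinase, 10.59 and 10.43 and then 10.08 and 10.00. Ube2c and Cdc20, which drive the exit from mitosis, were lower by 0.42 and 0.36, and Cdt1, which licenses replication origins, by 0.46.

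Genes of energy metabolism were measured as well. Of 36 genes of oxidative phosphorylation, 20 were called higher and 6 lower (55.6% and 16.7%), with a median of 0.17. Ndufa4 measured 11.17 and 11.01 in experiment 1 and 12.01 and 11.99 in experiment 2 (1.88-fold), Atp5o was higher by 0.51, and Sdhc, of complex II, was lower by 0.58. Among 22 genes of hypoxia and glycolysis 7 were lower and 3 higher (31.8% and 13.6%, against 20.1% and 19.1% of all probe sets). The glycolytic enzyme genes Pfkl and Hk1 were lower by 0.75 and 0.61, and the neuronal glucose transporter gene Slc2a3 was higher by 0.50. Of 13 ribosomal protein genes with a named probe set, 6 were higher and 2 lower (46.2% and 15.4%). Of 24 immediate early and heat shock genes, which respond to handling of tissue, 3 were called higher and 4 lower (12.5% and 16.7%). Ier2 was lower by 0.40 and Klf6 higher by 0.53, and Fos and Egr1 were not called.

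Markers of the sex chromosomes were compared within each genotype. Xist, made by the inactive X chromosome of females, measured 9.36 and 6.42 in experiment 1 and 9.62 and 6.58 in experiment 2. It was higher in experiment 2 by 0.25 within wildtype and by 0.16 within transgenic pools. Xist was called in the limma fit (adjusted p = 0.00925), and not without the genotype block (adjusted p = 0.883). The Y-linked genes gave Uty at 7.14 and 7.62 and then 7.69 and 8.20, and Eif2s3y at 8.30 and 8.94 and then 8.00 and 9.02. Uty was called, with a difference of 0.57, and Eif2s3y was not. In both experiments Xist was higher in the wildtype pool, and Uty and Eif2s3y were higher in the transgenic pool. The balance of female and male markers thus differed between the genotypes in both experiments.

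**Figure D5:**
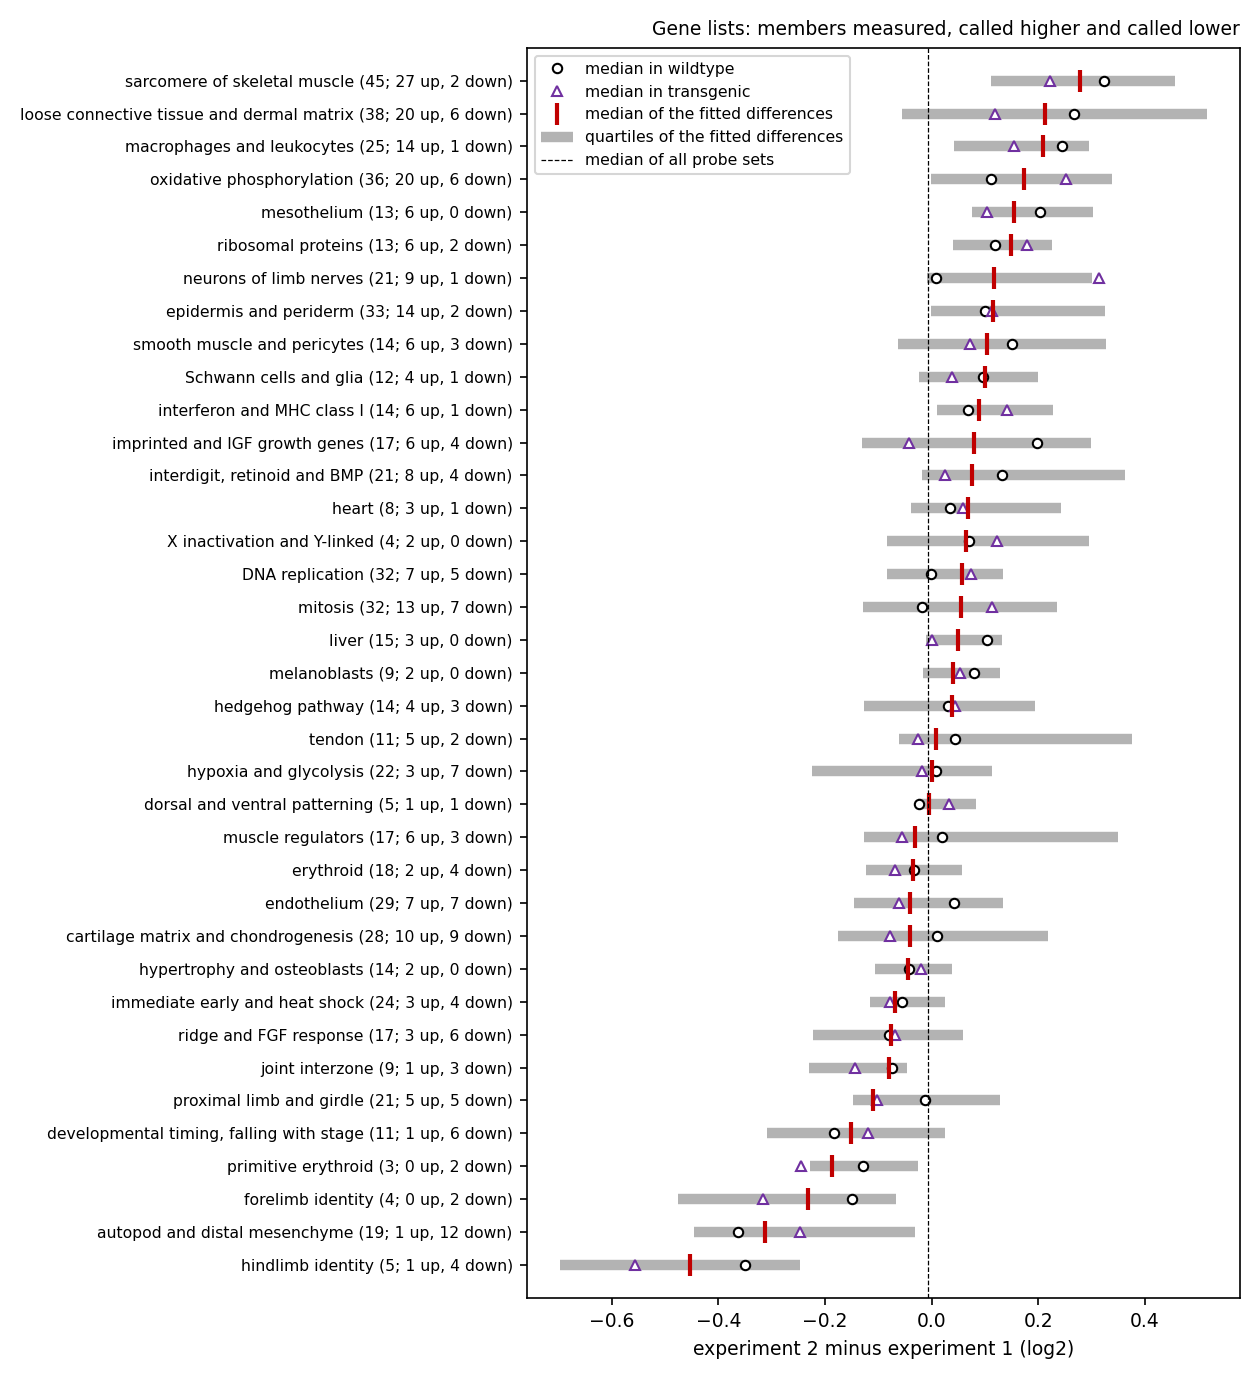
Median difference of experiment 2 minus experiment 1 in log2 for each of the 37 gene lists, over the fitted differences (red bar) and within wildtype (circle) and transgenic pools (triangle), with grey bars from the lower to the upper quartile and the numbers of members measured and called beside each name. Sarcomere genes (0.28) are at the top and hindlimb identity (−0.45) and distal limb genes (−0.31) at the bottom, around a median of −0.007 for all probe sets.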

How the data were processed

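Limb RNA at E12.5 was measured on 4 Affymetrix mouse genome arrays, taken by their title numbers as 2 experiments of 2 arrays. The authors log transformed and quantile normalized perfect-match values and deposited log2 values for 16556 probe sets grouped by Entrez gene. Probes were grouped by Custom CDF version 13, and the authors' own analysis, in JMP Genomics version 4.0, used log-linear mixed models with fixed terms for probe and genotype and a random term for sample. The methods do not state whether the deposited values came out of these models. A genome build is not given in the sources used here. That the logarithm is to base 2 follows from the range of values and from a threshold in the methods. No scanner files were used here, and precision is limited by the number of arrays.

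Of these, 64 are array controls; the remaining 16492 were compared with no filter. Platform annotation gave 1 symbol to 15270 probe sets, none has several, 3 symbols are on more than 1 probe set, and 1222 are unnamed. limma 3.58.1 in R 4.3.3 (lmFit, eBayes) fitted the log2 values with experiment as the contrast and genotype as a block, and p-values were adjusted by Benjamini-Hochberg over the 16492 probe sets, with calls at 0.05. The fit has 1 residual and 16.4 prior degrees of freedom. It was tested on simulated data with independent noise on each array. The simulated data held no effect of litter, pool or hybridization, so that test says nothing of such effects here. A difference is experiment 2 minus experiment 1. The array title number gave the experiments.

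The comparison and the 37 gene lists were chosen with earlier results of these data known. The rule for named genes took the 12 largest increases and 12 largest decreases among calls with the same sign in both genotypes, from every list the 4 members whose called difference was largest (2 members where fewer than 2 were called), Xist and Y-linked genes, and all members of the timing, primitive erythroid, forelimb and hindlimb lists. Any other gene was chosen after its values were seen. Lists are described by counts and medians, with no set test. Promoter windows are from RefSeq (GRCm38.p6) and matched 12273 of 15267 symbols (80.4%). Alternatives were no block, centring each array, quantile normalizing again, keeping only probe sets above the 25th or the 50th percentile, an intensity trend, a robust prior, other thresholds, each array left out and each genotype alone.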

Additional observations from a re-analysis of the deposited data

Results flagged for a closer look

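Among the genes named here, a few were flagged because the difference between experiments had opposite signs in the 2 genotypes. A gene was flagged if it was called, or if both differences were beyond 0.2. Genes not named here were not searched, and none of these contrasts was tested. Upk3b, a uroplakin of mesothelium, differed by 0.6684 in wildtype and by −0.0616 in transgenic pools, the latter smaller than the standard error of its fitted difference (0.1048). Wt1, a transcription factor of mesothelium and kidney, was at 0.5599 in wildtype and −0.2504 in transgenic pools. Col1a1, the main collagen of bone and fibrous tissue, was at 0.2611 and −0.3816. For Upk3b, Wt1 and Col1a1 alike, the lowest of the 4 values was that of the wildtype array of experiment 1.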

How the results depend on the processing

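Without the genotype block, with each array centred, with quantile normalization repeated, with filters at the 25th and 50th percentile, with an intensity trend and with a robust prior, the counts of probe sets called higher and lower stayed within 1.5 times those reported (3155 and 3318). Centring gave 3977 higher and 2866 lower. Requiring a difference beyond 0.5 left 335 and 386. Leaving out each array in turn, with no genotype block since none could be fitted on 3 arrays, gave 1680 to 2499 higher and 2118 to 2621 lower, with the lone array of an experiment assumed to vary like the other pair; the lowest counts were those without the transgenic array of experiment 2. Of the 197 named genes that were called, 10 lost the call without the block and 4 with centring (Lin28a, Cd163, Nefh and Pax7). With a robust prior 4 lost it (Postn, Tcf21, Upk3b and Afp), and between 15 and 36 when an array was left out. Hbb-bh1 lost it without the block and kept it, of the 4 arrays left out, only without the wildtype array of experiment 2. Isl1, Hba-x, Uty, Matn1 and Myh3 lost it without the transgenic array of experiment 2 and without the wildtype array of experiment 1, Hoxc9 and Alas2 without the wildtype array of experiment 2 and without the transgenic array of experiment 1, and Fst, Ngfr, C1qa and Alx1 only without the transgenic array of experiment 2.

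The medians of the 37 lists moved by at most 0.095 under centring, repeated quantile normalization, trend or robust prior. The median of Schwann cell and glial genes changed sign, to −0.0789, among genes above the 50th percentile, where fewer genes were counted. Upk3b gave −0.0616 in transgenic pools alone and ranged from −0.0532 to 0.6599 when an array was left out. Over the same fits Col1a1 ranged from −0.3544 to 0.2339 and Wt1 from −0.2398 to 0.5493. Xist, which stood apart by genotype, ranged from −1.3096 to 1.7213, since without a block these fits compare unequal numbers of wildtype and transgenic arrays. The reported fit pairs the arrays of a genotype through its block, and the labels give no replicate numbers to pair on. Each experiment rests on 2 arrays.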

Other observations

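The largest decrease over all probe sets was that of an unnamed probe set, at 8.01 and 8.06 in wildtype and transgenic pools of experiment 1 and 6.47 and 6.44 in experiment 2, a difference of −1.58. Of the 1222 unnamed probe sets, 373 were called, a smaller share than the 39.2% of all probe sets. In the promoter windows, the median GC content was 59.3% for genes called higher, 62.0% for genes called lower and 57.7% for genes not called, and TATAAA on either strand was in 9.15%, 5.73% and 11.3% of them. These are descriptions of gene groups chosen by the calls, with no test. The smallest difference that was called was 0.1485 on the log2 scale, and 16 of the 64 control probe sets, which were not part of the fit, differed by more than that. These were 4 of 18 hybridization spike-ins, none of 27 poly-A spike-ins, the 3 repeat probe sets and 9 of 16 probe sets for sections of mouse transcripts.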
